A study of Caenorhabditis elegans with 23 samples.

Results

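The genes described here are 10 Caenorhabditis elegans genes, of 46904 gene IDs counted, whose mRNA was higher in N2_Star worms than in N2 worms. They were picked by name for that difference, so their mRNA values in N2_Star and N2 describe the choice and are given with no test. They are C10C6.7, F15E6.3, T19B10.2, C55C3.3, T09B4.5, cht-1, mnp-1, kpc-1, ceeh-2 and K07C11.7. All 10 are annotated as protein coding, and they lie on chromosomes I (2 genes), III (1 gene), IV (3 genes), V (3 genes) and X (1 gene).

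The study counted mRNA and small RNA per gene in MY16_Star, MY16, N2_Star and N2. N2 is the standard laboratory strain of this worm and MY16 is a wild isolate. The labels do not explain the word Star and name no allele, transgene or treatment for any group. All groups were whole animals at day 1 of adulthood, grown at 20 °C on E. coli OP-50. There were 3 mRNA libraries in each group, and 3 small RNA libraries in each group except N2_Star, which had 2. The design text places the failed small RNA library in MY16_Star, while the sample list and the table columns have N2_Star as the group with 2. The design text calls the replicates biological without saying how the cultures were kept apart, so a p-value measures the spread between these libraries.

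Among the members with a known role, cht-1 encodes a chitinase, an enzyme that cuts chitin, the sugar polymer of the worm's eggshell and pharynx lining. kpc-1 encodes a proprotein convertase of the Kex2 and furin kind, which cuts precursor proteins to their active form and is needed for branching of the PVD sensory dendrites. mnp-1 encodes a relative of the M1 aminopeptidases that lacks residues needed for catalysis and acts in embryonic muscle cell migration, and ceeh-2 encodes an epoxide hydrolase, which opens fatty acid epoxides. The other 6 genes carry sequence names only. Worms also make small RNAs antisense to many genes, which Argonaute proteins bind and use to lower the level of the matching RNA.

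Levels are given in CPM, the count scaled to a common library total, with TMM scaling, which corrects for a few abundant genes; they are not divided by gene length. Gene counts were 9362590 to 23150198 per mRNA library and 1778321 to 19563562 per small RNA library, so that 3 counts, the upper limit a count of 0 allows, equal 0.127 to 0.311 CPM and 0.134 to 1.95 CPM. In mRNA, N2_Star replicate 1 stood apart on the second principal component, at 89.5, against -34.3 to 32.4 in the other 11 libraries. Over all 13983 genes tested, edgeR's quasi-likelihood test called 17 higher in N2_Star than in N2 (0.122%) and 4 lower. That the 10 members are among the 17 restates how they were chosen, and nothing is read from it. The other 7 (F56D6.8, dct-8, Y6E2A.4, Y41G9A.5, M03A1.8, F46C3.6 and eff-1) averaged 0.578 to 2.83 CPM over the 12 libraries, below the 5.24 to 45.01 CPM of the members. These calls depend on the N2 libraries: no gene was called without N2 replicate 1, 2 or 3, or when only N2_Star and N2 were fitted, and 177, 50 and 33 genes were called without N2_Star replicate 1, 2 and 3. The members' log2 fold changes stayed between 0.91 and 3.18 under every alternative tried.

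**Figure D1:**
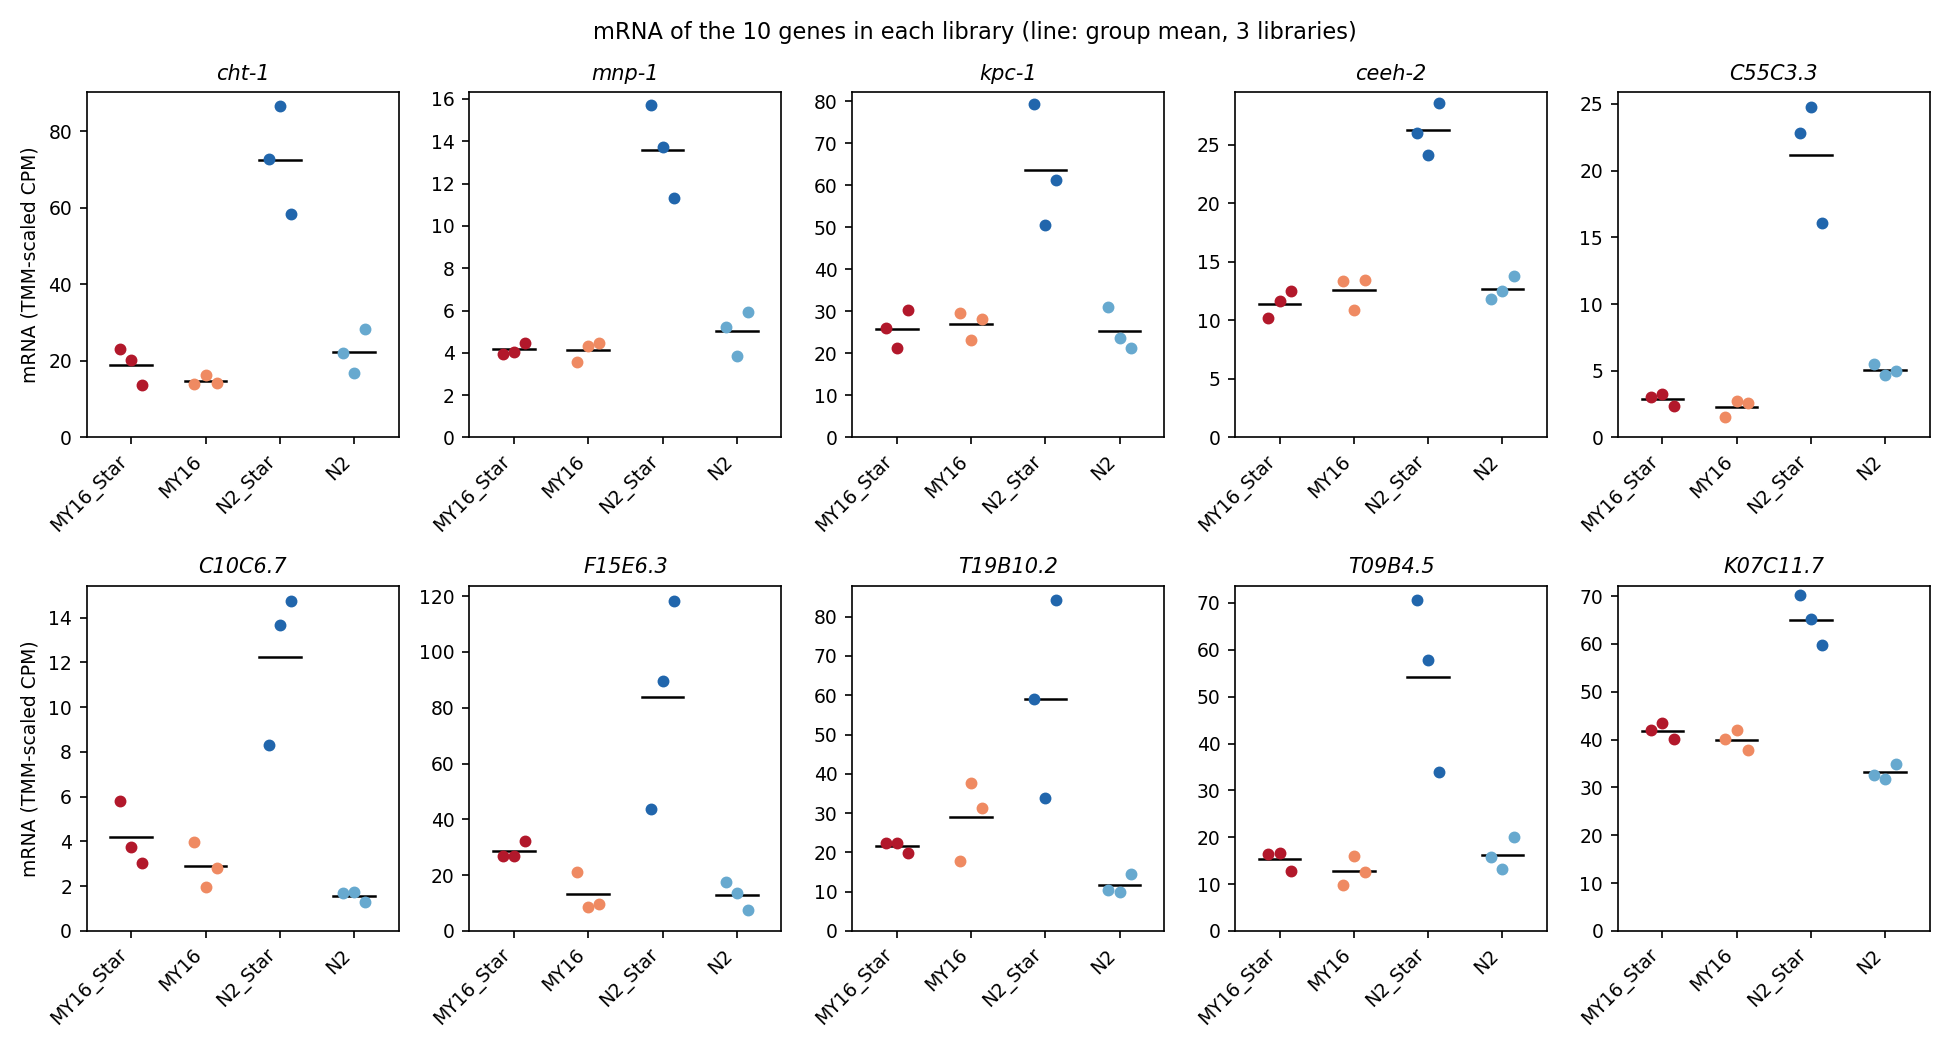
mRNA level of the 10 genes in CPM (linear axis) in each of the 12 libraries, grouped as MY16_Star, MY16, N2_Star and N2, with 1 point per library and a line at the group mean. The N2_Star points lie above those of N2 for every gene, and T19B10.2 is the gene in which an MY16 library (37.6 CPM) reaches above the lowest N2_Star library (33.9 CPM).

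The differences in mRNA between N2_Star and N2 ran from 1.96-fold for K07C11.7 to 7.80-fold for C10C6.7, with a median log2 fold change of 1.71 over the 10 genes and -0.0068 over all genes tested. For each gene every N2_Star library lay above every N2 library, as it did for 9.54% of the genes tested; for the members the choice fixes this. The ratio of the lowest N2_Star to the highest N2 library was smallest for kpc-1, at 1.63, and widest for C10C6.7, at 4.82. For 9 of the 10 genes the N2_Star libraries also lay above all libraries of MY16_Star and MY16, as did 4.83% of the genes tested (675 of 13983). The choice of the members used the same N2_Star values, so nothing is read from this. In whole worms, more cells of a type and more RNA per cell cannot be told apart.

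cht-1 (WBGene00000503, chromosome X, 3397613 to 3400017 in ce11) had 72.9, 86.6 and 58.3 CPM in N2_Star, against 22.04, 16.7 and 28.3 CPM in N2. The groups did not overlap, and the fitted difference was 3.24-fold (log2 1.70 ± 0.240, SE). In MY16_Star the chitinase message stood at 23.2, 20.1 and 13.6 CPM, against 13.9, 16.3 and 14.3 CPM in MY16, and these groups overlapped. Of the other chitin genes listed, 17 of 37 were expressed enough to test and 0 were called between N2_Star and N2, with 12 positive and a median log2 fold change of 0.29. As 21 of 13983 genes were called in this comparison, 0 calls in a short list says little, here and for the lists and neighbours below. The largest difference was that of lgx-1, at 4.51 CPM on average in N2_Star and 0.865 CPM in N2 (log2 2.40 ± 0.721, edgeR adjusted p = 0.181). Next came chil-23, at 4.63 CPM in N2_Star and 1.25 CPM in N2 (log2 1.90 ± 0.856, edgeR adjusted p = 0.397). The chitinase cht-3 and the chitin synthases chs-1 and chs-2 had log2 fold changes of 0.34, -0.37 and 0.05, and none of them was called.

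kpc-1 (WBGene00002232, chromosome I, 11675945 to 11680975) had 79.3, 50.6 and 61.4 CPM in N2_Star, against 31.03, 23.6 and 21.2 CPM in N2, a 2.52-fold difference (log2 1.34 ± 0.212). All N2_Star libraries were higher, and N2_Star replicate 1 was the highest. In MY16_Star kpc-1 had 26.1, 21.4 and 30.2 CPM, against 29.7, 23.2 and 28.2 CPM in MY16, a span that overlaps that of N2. The 9 other proprotein convertases and peptide processing genes, all tested, gave 0 calls between N2_Star and N2. Their median log2 fold change was 0.15, and the largest was that of ida-1 (0.40 ± 0.300). The main convertase of neuropeptides, egl-3, had 0.22 ± 0.310 and bli-4, which acts on cuticle collagens, had -0.17 ± 0.143. Of the 13 genes of PVD dendrite branching that were tested, eff-1, the cell fusion protein that also trims dendrites, was called higher in N2_Star, at 3.89 CPM against 0.882 CPM in N2 (log2 2.13 ± 0.347, edgeR adjusted p = 0.035). The dendrite receptor gene dma-1 averaged 2.56 CPM in N2_Star and 0.548 CPM in N2 and was not called (log2 2.21 ± 0.753, edgeR adjusted p = 0.238), and the list's median was 0.13.

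mnp-1 (WBGene00007139, chromosome III, 4356594 to 4364979) had 15.7, 13.7 and 11.3 CPM in N2_Star, against 5.24, 3.86 and 5.93 CPM in N2, a 2.70-fold difference (log2 1.43 ± 0.232). The N2 range overlapped that of the wild isolate groups, which stood at 3.96, 4.06 and 4.47 CPM in MY16_Star and 3.58, 4.33 and 4.45 CPM in MY16. Of the 10 tested genes for M1 aminopeptidases and for proteins acting in the same migrations, 0 were called between N2_Star and N2 and the median log2 fold change was -0.04. The Wnt ligand gene cwn-2 had the largest difference named here, 4.55 CPM in N2_Star and 1.57 CPM in N2 (log2 1.52 ± 0.618, edgeR adjusted p = 0.345).

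ceeh-2 (WBGene00010628, chromosome V, 10356285 to 10357903) had 25.999, 24.2 and 28.6 CPM in N2_Star, against 11.8, 12.5 and 13.8 CPM in N2. The spread within each group was narrow, and the difference was 2.07-fold (log2 1.05 ± 0.172). MY16_Star, at 10.197, 11.6 and 12.5 CPM, and MY16, at 13.4, 10.9 and 13.5 CPM, overlapped each other and N2. The related epoxide hydrolase gene ceeh-1 averaged 16.3 CPM in N2_Star and 13.8 CPM in N2 (log2 0.24 ± 0.275, edgeR adjusted p = 0.820). Among 15 genes of epoxide and polyunsaturated fatty acid metabolism 0 were called, with a median log2 fold change of 0.06. The elongase genes elo-5 and elo-6 were lower on average in N2_Star, at 23.6 and 34.7 CPM against 64.9 and 90.1 CPM in N2, without passing the test (edgeR adjusted p = 0.160 and 0.126).

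C10C6.7 (WBGene00007515, chromosome IV, 11465411 to 11467513) had the largest ratio, with 8.31, 13.7 and 14.8 CPM in N2_Star, against 1.69, 1.72 and 1.31 CPM in N2 (7.80-fold, log2 2.96 ± 0.366). N2_Star replicate 1 was the lowest of its group and still lay above every other library. MY16_Star had 5.83, 3.76 and 3.04 CPM, against 3.98, 1.99 and 2.80 CPM in MY16, so both wild isolate groups lay between N2 and N2_Star.

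F15E6.3 (WBGene00017484, chromosome IV, 4294895 to 4295689) had the widest range within N2_Star, with 43.7, 89.5 and 118 CPM, against 17.5, 13.7 and 7.498 CPM in N2 (6.51-fold, log2 2.70 ± 0.430). Without N2_Star replicate 1 the ratio of the group means was 8.04, against 6.49 with it. This gene lies within the span of F15E6.9, which averaged 1.202 CPM.

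T19B10.2 (WBGene00011831, chromosome V, 11221302 to 11222825) had 59.2, 33.9 and 84.2 CPM in N2_Star, against 10.4, 9.85 and 14.6 CPM in N2 (5.06-fold, log2 2.34 ± 0.337). Here the wild isolate was also above N2, with 17.9, 37.6 and 31.4 CPM in MY16, while MY16_Star had 22.4, 22.5 and 19.7 CPM. It is the member whose N2_Star and MY16 libraries overlapped. Its end overlaps bgal-1, which averaged 14.3 CPM.

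T09B4.5 (WBGene00020379, chromosome I, 6154075 to 6157440) had 70.7, 57.8 and 33.9 CPM in N2_Star, against 15.8, 13.1 and 20.0 CPM in N2 (3.31-fold, log2 1.73 ± 0.280). N2_Star replicate 1 was the highest, and without it the ratio of the means was 2.81, against 3.32 with it. MY16_Star had 16.4, 16.7 and 12.8 CPM, and MY16 had 9.84, 16.05 and 12.6 CPM, all within or below the N2 range.

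K07C11.7 (WBGene00019479, chromosome V, 8207926 to 8213968) had the smallest difference and the tightest groups, with 70.3, 65.3 and 59.7 CPM in N2_Star, against 32.6, 31.9 and 34.9 CPM in N2 (1.96-fold, log2 0.97 ± 0.119). MY16_Star, at 42.0, 43.4 and 40.1 CPM, and MY16, at 40.2, 41.9 and 37.8 CPM, overlapped each other and lay above every N2 library. C55C3.3 is described with its small RNA further on.

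The MY16 pair shares no library with the choice of the members, so the same difference could be tested there. The spread behind its p-values and intervals was estimated over all 4 groups, and so also from the N2_Star and N2 libraries. With only MY16_Star and MY16 fitted, 0 members were called as well. Between MY16_Star and MY16, 0 of the 10 genes were called by edgeR and 0 by DESeq2, against 0.0215% of all genes by edgeR (3 of 13983, all lower). At an unadjusted p below 0.05 there was 1 of 10, against 4.43% of all genes. Of the 10 differences 7 were positive and 3 negative, with a median log2 fold change of 0.16 over the members and -0.04 over all genes. The gene with the largest was F15E6.3, at 27.04, 26.8 and 32.2 CPM in MY16_Star against 21.05, 8.61 and 9.84 CPM in MY16. All MY16_Star libraries were higher, as in 5.35% of the genes tested, and the log2 fold change was 1.12 ± 0.414 (95% interval 0.22 to 2.02, edgeR adjusted p = 0.873). Unlike it, the other 9 genes overlapped between MY16_Star and MY16.

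The intervals give the range of MY16_Star to MY16 differences that these libraries allow. For K07C11.7 the MY16_Star to MY16 difference was 0.07 on the log2 scale (95% interval -0.19 to 0.32) and for ceeh-2 it was -0.13 (-0.51 to 0.24). For C55C3.3 it was 0.34 (-0.26 to 0.94), for T19B10.2 -0.43 (-1.13 to 0.27) and for C10C6.7 0.53 (-0.22 to 1.28). For T09B4.5 it was 0.25 (-0.35 to 0.85), for cht-1 0.35 (-0.17 to 0.87), for mnp-1 0.02 (-0.50 to 0.53) and for kpc-1 -0.06 (-0.52 to 0.40). The interval of F15E6.3, given above, was the one that lay wholly on one side of 0. The adjusted p-values from edgeR for the 10 genes lay between 0.873 and 1. A difference between the isolates in the Star effect was not tested in mRNA, because the N2 side of it chose the members.

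**Figure D2:**
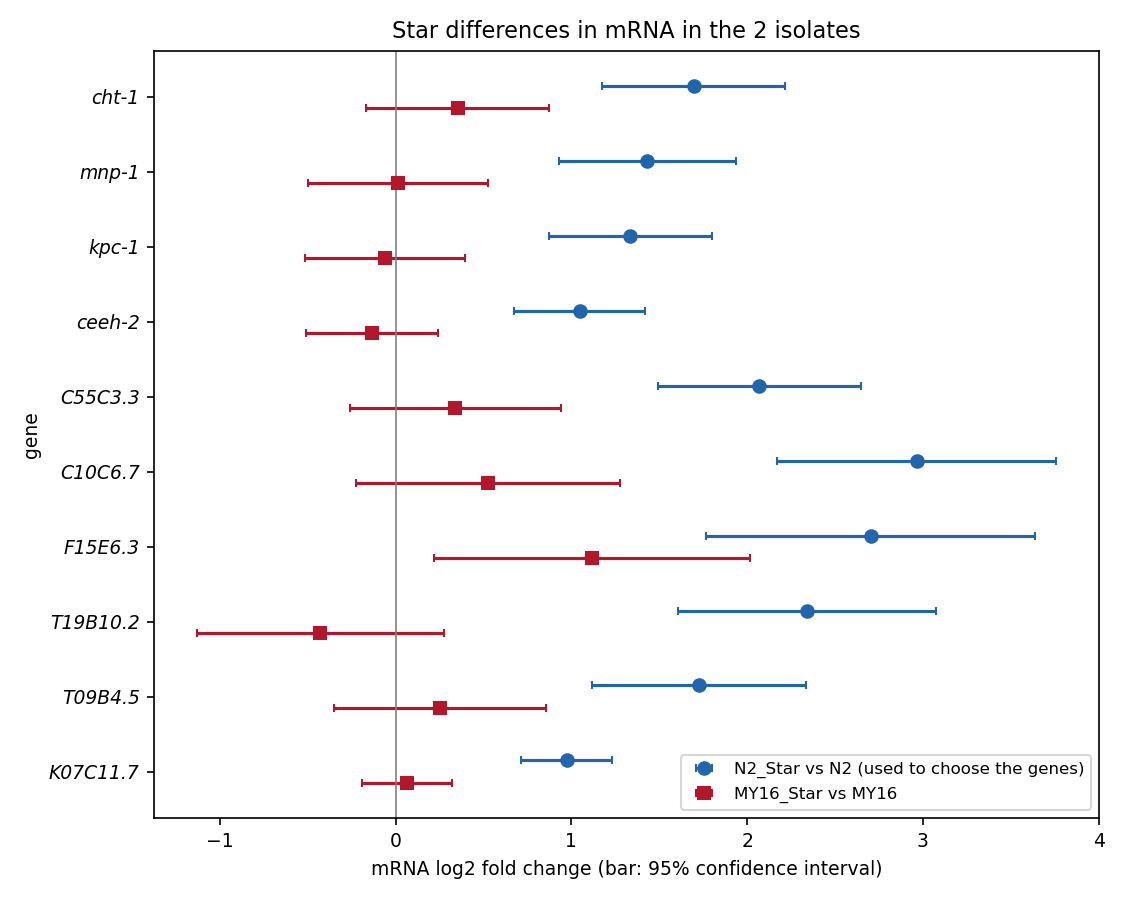
Log2 fold change in mRNA with its 95% interval for each of the 10 genes, for MY16_Star over MY16 and for N2_Star over N2. The N2_Star values lie at 0.97 to 2.96 by the choice of the genes, while the MY16_Star values lie between -0.43 and 1.12 and 9 of their 10 intervals cover 0.

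Set side by side without a test, since the libraries are shared with the choice, MY16 against N2 went both ways. In MY16 all libraries were above those of N2 for T19B10.2 (log2 1.31 ± 0.330), C10C6.7 (0.90 ± 0.361) and K07C11.7 (0.27 ± 0.118), and all were below for C55C3.3 (-1.14 ± 0.274) and cht-1 (-0.59 ± 0.239). The other 5 overlapped. Of all genes tested, 9% had every MY16 library higher and 14.9% every one lower. MY16_Star was below N2_Star in every library for all 10 genes, against 20.3% of the genes tested, with log2 fold changes of -0.64 (K07C11.7) to -2.87 (C55C3.3). Reads of the wild isolate were placed on the N2 reference, where sequence that has diverged can be undercounted, and the part of this in the MY16 and MY16_Star values was not tested.

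C55C3.3 (WBGene00016953, chromosome IV, 5685287 to 5688273) combined a difference in mRNA with a difference in small RNA that the choice of members did not use. In mRNA it had 22.8, 24.7 and 16.05 CPM in N2_Star, against 5.49, 4.68 and 4.96 CPM in N2 (4.20-fold, log2 2.07 ± 0.266). In MY16_Star it had 3.03, 3.23 and 2.40 CPM, against 1.54, 2.75 and 2.59 CPM in MY16, so the message was lowest in the wild isolate groups and highest in N2_Star.

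Small RNA of C55C3.3 was lower in MY16_Star, at 80.3, 87.9 and 59.5 CPM, than in MY16, at 276, 242 and 251 CPM. The means were 75.9 ± 14.7 CPM in MY16_Star and 256 ± 17.8 CPM in MY16 (SD, n = 3 each), and every MY16_Star library lay below every MY16 library, as in 6.38% of the genes tested. The difference was 3.37-fold (log2 -1.75 ± 0.193, edgeR adjusted p = 0.000826), and C55C3.3 was the 1 called among the 5 members that could be tested in small RNA, against 1.02% of all 12241 genes tested. It was called lower in MY16_Star under each alternative tried, with adjusted p-values up to 0.0054.

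In the N2 pair the values lay the other way round. C55C3.3 had 78.2 and 103 CPM in N2_Star, against 31.6, 36.2 and 43.0 CPM in N2, and the means were 90.6 ± 17.7 CPM (SD, n = 2) in N2_Star and 36.9 ± 5.73 CPM (SD, n = 3) in N2. Both N2_Star libraries lay above all N2 libraries, as in 9.44% of the genes tested, but with 2 libraries against 3 the difference of 2.48-fold (log2 1.31 ± 0.212, 95% interval 0.85 to 1.78) did not pass edgeR's test over all genes (adjusted p = 0.171), in which 0.0245% were called. DESeq2 called it (adjusted p = 0.00012), as did edgeR without N2 replicate 3 (adjusted p = 0.0356), and over all alternatives the adjusted p ran from 0.00012 to 1.

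The Star difference in small RNA of C55C3.3 differed between the isolates. The log2 fold change of MY16_Star over MY16 minus that of N2_Star over N2 was -3.07 ± 0.285 (95% interval -3.69 to -2.44, edgeR adjusted p = 0.000383), in a test that called 0.368% of all genes and 1 of the 5 members. The starting levels were unequal: MY16 had 7.04 times the small RNA of N2 (log2 2.82 ± 0.204, edgeR adjusted p = 2.17e-06), where 18.6% of all genes and 2 of the 5 members were called. In both Star groups the libraries fell between those of MY16 and those of N2, at 59.5 to 87.9 CPM in MY16_Star and 78.2 to 103 CPM in N2_Star. MY16_Star and N2_Star overlapped (log2 -0.25 ± 0.210, 95% interval -0.71 to 0.21, edgeR adjusted p = 0.460), where 14.5% of all genes and 1 of the 5 members, mnp-1, were called. Their mRNA levels did not overlap, at 2.40 to 3.23 CPM in MY16_Star and 16.05 to 24.7 CPM in N2_Star.

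**Figure D3:**
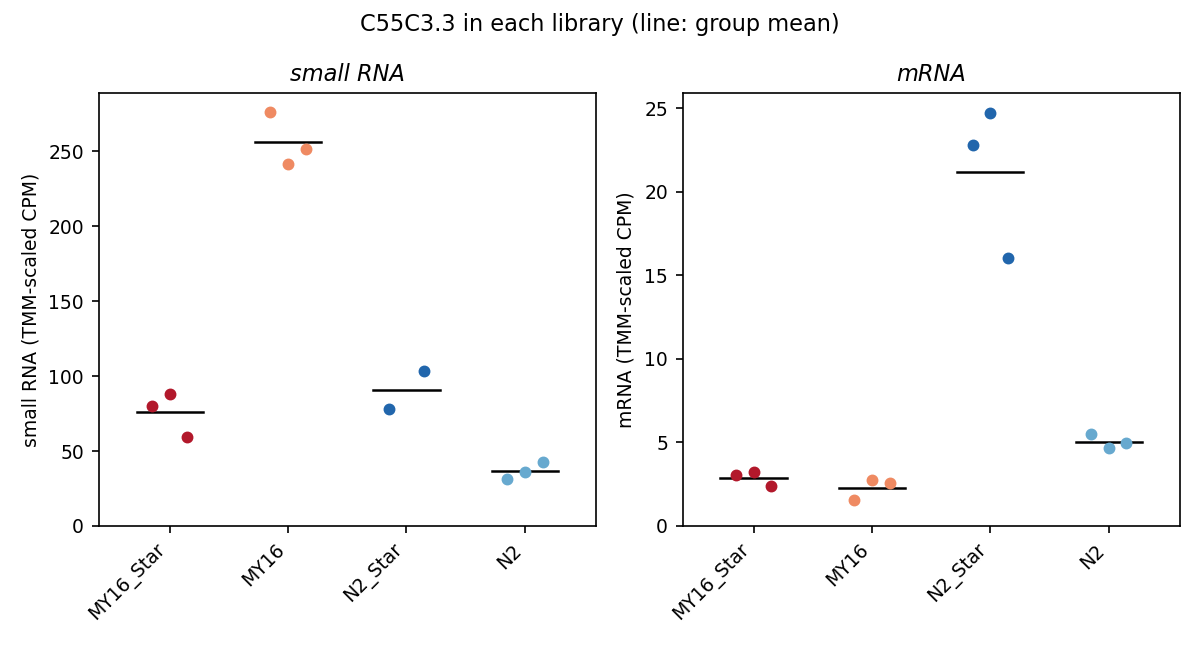
Small RNA and mRNA of C55C3.3 in CPM in each library of MY16_Star, MY16, N2_Star and N2, with a line at the group mean. Small RNA is highest in MY16 (242 to 276 CPM) and lowest in N2 (31.6 to 43.0 CPM), with both Star groups in between, whereas mRNA is highest in N2_Star (16.05 to 24.7 CPM).

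mnp-1 had the most small RNA counts of the members, 31337 over the 11 libraries, and this small RNA was higher in the wild isolate groups. It had 610, 437 and 372 CPM in MY16_Star and 655, 416 and 359 CPM in MY16, against 258 and 211 CPM in N2_Star and 224, 210 and 280 CPM in N2. The MY16 libraries lay above all N2 libraries, as in 15.4% of the genes tested (log2 1.003 ± 0.263, edgeR adjusted p = 0.0195), a call that was lost without MY16 replicate 1 (log2 0.69, adjusted p = 0.0784), N2 replicate 1 (0.93, adjusted p = 0.0910) or N2 replicate 2 (0.89, adjusted p = 0.0859). MY16_Star also lay above N2_Star in every library, as in 24% of the genes tested (log2 1.01 ± 0.300, edgeR adjusted p = 0.0434), and that call was lost without any 1 of MY16_Star replicates 1 and 2 and N2_Star replicates 1 and 2 (adjusted p 0.0958 to 0.243) and with other size factors (0.0518).

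Within each isolate mnp-1 small RNA showed no called difference, while its mRNA was 2.70-fold higher in N2_Star than in N2. N2_Star against N2 gave a log2 fold change of -0.02 (95% interval -0.66 to 0.62), and MY16_Star against MY16 gave -0.01 (-0.58 to 0.56), each with an edgeR adjusted p of 1.

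The other small RNA levels were low. C10C6.7 had 2.87, 2.96 and 3.10 CPM in MY16_Star and 0.574, 2.76 and 2.23 CPM in MY16, against 9.29 and 8.52 CPM in N2_Star and 4.51, 4.07 and 14.3 CPM in N2. Every MY16 library was below every N2 library, as in 17.8% of the genes tested, with a log2 fold change of -1.67 ± 0.542 that missed the threshold in edgeR (adjusted p = 0.0536). It passed in DESeq2 (0.0182) and in edgeR with no filter (0.0115) or without N2 replicate 2 (0.0362). MY16_Star was below N2_Star in every library, as in 26.3% of the genes tested (log2 -1.58 ± 0.531, edgeR adjusted p = 0.0708). That difference passed in DESeq2 (0.0379) and in edgeR with no filter (0.0152), with a replicate block (0.0467) or with only the compared groups fitted (0.0105). MY16_Star was above MY16 in every library, as in 7.78% of the genes tested, by less than the test could call (log2 0.50 ± 0.541, edgeR adjusted p = 0.893). This gap was narrow, with 13 counts (2.87 CPM) in the lowest MY16_Star library and 18 counts (2.76 CPM) in the highest MY16 library. MY16 replicate 1 had 1 count, in a library where 3 counts equal 1.72 CPM.

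kpc-1 had 4.63, 4.98 and 3.42 CPM of small RNA in MY16_Star and 9.76, 6.12 and 2.98 CPM in MY16, against 7.13 and 4.81 CPM in N2_Star and 3.45, 3.40 and 15.6 CPM in N2. T09B4.5 lay between 0.882 and 2.42 CPM in all 11 libraries. Both genes overlapped between the groups of every pair and neither was called in any comparison. For C10C6.7 and kpc-1 the highest value of N2 came from N2 replicate 3, the library with 1778321 counts, and without it their log2 fold changes of N2_Star over N2 were 1.10 and 0.87, against 0.42 and -0.05 with it, none called.

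The remaining 5 genes were left out of the small RNA tests by the filter on low counts. Over 11 libraries F15E6.3 had 2 counts in all, T19B10.2 had 14, cht-1 had 54, ceeh-2 had 66 and K07C11.7 had 76. F15E6.3 was at 0 in 9 libraries, where 3 counts allow up to 1.95 CPM in the shallowest. In the measured values some of their groups did not overlap, on counts of at most 16 in a library. No share over all genes was taken for genes below the filter, so nothing is read from this. ceeh-2 had 0.441, 0.578 and 0.489 CPM in MY16_Star, against 1.15, 1.22 and 1.19 CPM in MY16. K07C11.7 had 3.45, 1.22 and 0.745 CPM in MY16, against 0.527, 0.626 and 0 CPM in N2, and its lowest MY16_Star library, at 0.652 CPM, lay just above the highest N2_Star library, at 0.636 CPM. cht-1 had 1.15, 0.459 and 0.447 CPM in MY16, against 0.351, 0.268 and 0 CPM in N2. The 0 CPM of both genes is from N2 replicate 3, where 3 counts equal 1.95 CPM. That floor lies above every MY16 value of cht-1 and above 1.22 and 0.745 CPM of K07C11.7. For these genes a lack of overlap between MY16 and N2 is therefore not established. These differences were not tested.

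**Figure D4:**
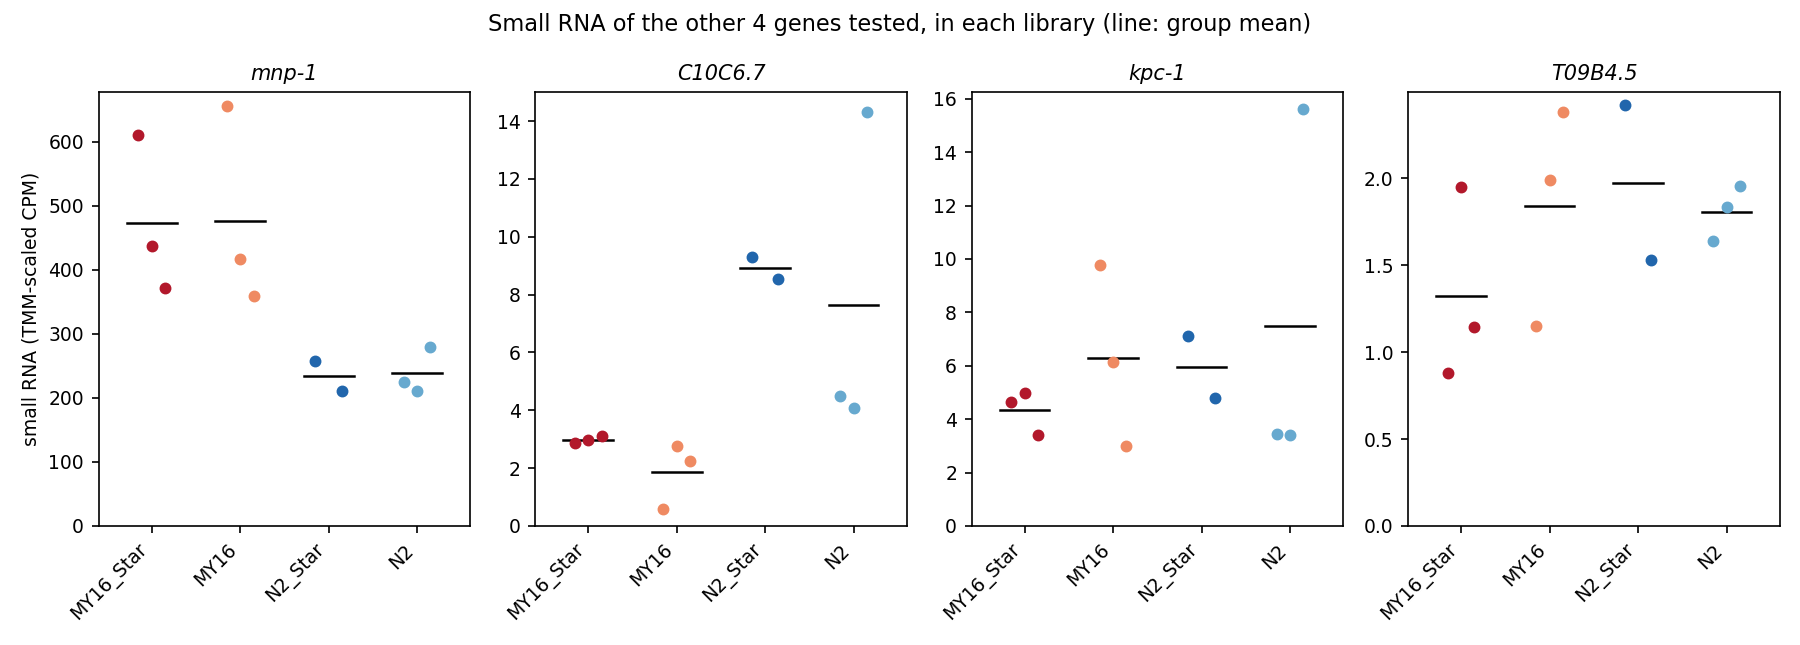
Small RNA of mnp-1, C10C6.7, kpc-1 and T09B4.5 in CPM in each library of MY16_Star, MY16, N2_Star and N2, with a line at the group mean. mnp-1 is higher in MY16_Star and MY16 (359 to 655 CPM) than in N2_Star and N2 (210 to 280 CPM), and the single N2 library that stands high for C10C6.7 and kpc-1 is N2 replicate 3.

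The 10 messages did not all vary together within the groups. After the group means were taken out, the 45 pairwise correlations over the 12 mRNA libraries ran from -0.84 to 0.85 with a median of -0.02, and 21 were above 0. T09B4.5 went with K07C11.7 (r = 0.85), C55C3.3 (0.80), mnp-1 (0.76) and cht-1 (0.74). C10C6.7 went with F15E6.3 (0.71), while F15E6.3 and T09B4.5 moved against each other (-0.84). These libraries share their depth, scaling and worms, so the values describe the set and carry no test.

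**Figure D5:**
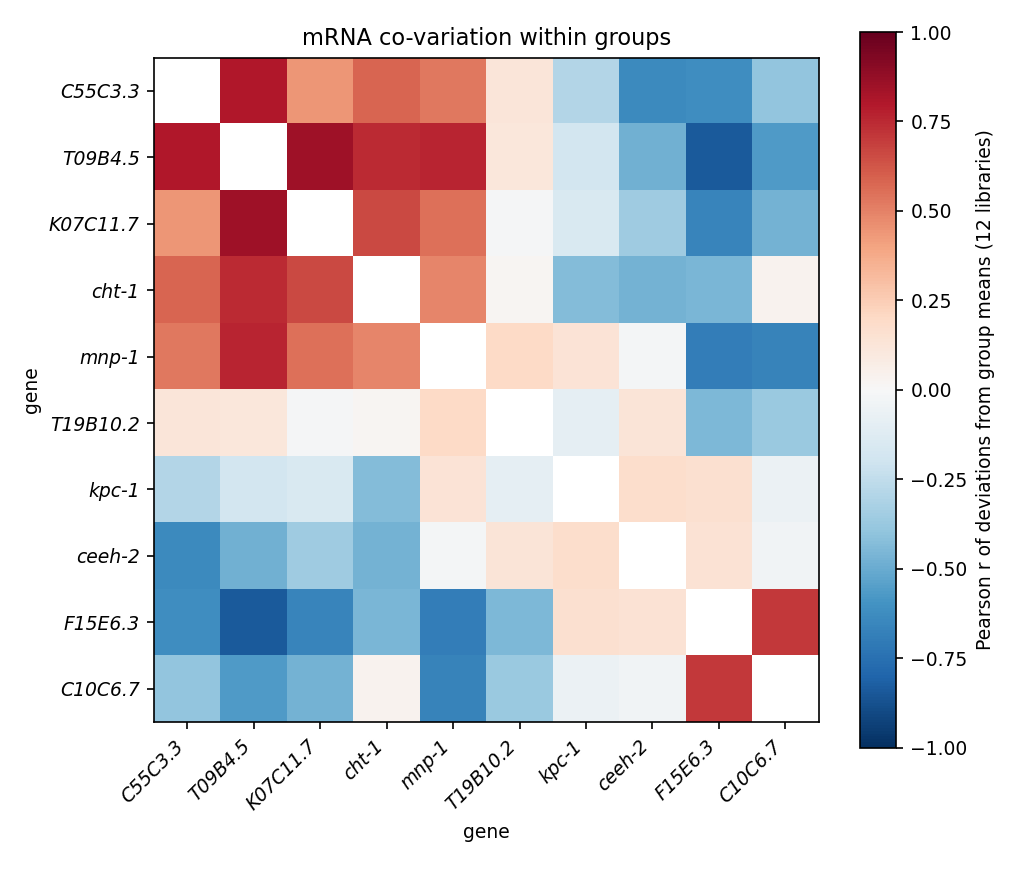
Pearson correlation of log2 CPM between each pair of the 10 genes over the 12 mRNA libraries, after each group's mean was taken out. Values run from -0.84 (F15E6.3 with T09B4.5) to 0.85 (T09B4.5 with K07C11.7), and the genes do not form one block of positive values.

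Of 8737 other genes with a mean of at least 5 CPM, those most like the members' mean pattern over the 12 mRNA libraries were K10B4.3 (r = 0.946), dnj-27 (0.922), dlg-1 (0.912), F13H10.6 (0.910) and fbn-1 (0.909). Group means were kept in this pattern, so it holds the N2_Star difference that chose the members, and the likeness carries no test. dlg-1 encodes a scaffold of epithelial junctions and fbn-1 a fibrillin-like matrix protein. fbn-1 averaged 22.7 CPM in N2_Star against 4.17 CPM in N2, and 2.55 CPM in MY16_Star against 2.36 CPM in MY16, and K10B4.3 averaged 20.7 CPM in N2_Star against 11.5 CPM in N2. None of these 5 was called between N2_Star and N2.

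The genes beside the members were then set against them. Of the 20 nearest expressed neighbours 0 were called between N2_Star and N2, 14 were positive, and the log2 fold changes ran from -0.79 to 1.05 with a median of 0.14. The highest was F15E6.4, next to F15E6.3, at 23.7 CPM on average in N2_Star and 11.5 CPM in N2 (edgeR adjusted p = 0.298). Only vit-5, a yolk protein gene next to cht-1, had all N2_Star libraries above N2, averaging 8692 CPM in N2_Star and 5472 CPM in N2 (log2 0.67 ± 0.222, edgeR adjusted p = 0.226). Other genes overlapping a member, slcf-2 with cht-1, scrm-4 with kpc-1 and timp-1 with K07C11.7, averaged 2.48, 5.12 and 9.83 CPM. The mRNA counts hold a separate line for ambiguous reads, left out here, with 0.116% (MY16_Star replicate 2) to 0.145% (N2_Star replicate 2) of a library. The settings by which reads in each overlap were assigned are not given in the sources used here.

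Tissue marker mRNA is set beside these values. The summed mRNA of 15 intestinal markers was 56787 to 80704 CPM in N2_Star, against 46897 to 51877 CPM in N2, without overlap, with 11 of 15 positive. Most of this sum was mRNA of yolk protein genes. Of these, vit-2 and vit-6 averaged 24984 and 27891 CPM in N2_Star, against 15731 and 20999 CPM in N2. The 4 negative markers included act-5 (log2 -0.69) and ifb-2 (-0.42), so the sum mainly gives yolk gene mRNA. All 14 oocyte and germline markers had negative log2 fold changes, with a median of -0.31 and sums of 7533 to 11722 CPM in N2_Star against 11420 to 13261 CPM in N2. The 10 epidermal and cuticle markers had a median of 0.98, with 7 of 10 positive. Their sums were 3021 to 5004 CPM in N2_Star against 3794 to 4593 CPM in N2. Most of this sum was mRNA of col-19, col-119 and col-140, the 3 negative markers (log2 -0.24, -0.01 and -0.08). The largest positive differences were those of dpy-7 (log2 4.16 ± 1.23), sqt-3 (2.87 ± 0.898) and dpy-10 (2.68 ± 0.745). dpy-7 averaged 15.7 CPM in N2_Star and 0.887 CPM in N2, and sqt-3 averaged 102 and 13.9 CPM. dpy-7, sqt-3 and dpy-10 were not called (edgeR adjusted p = 0.176, 0.198 and 0.161). The part of worm stage in these differences was not tested. N2_Star replicate 1, the library that stood apart, gave the lowest intestinal sum (56787 CPM), the lowest germline sum (7533 CPM, with 11722 and 9766 CPM in replicates 2 and 3) and the highest epidermal sum (5004 CPM, with 4348 and 3021 CPM).

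Muscle, neuron and sperm markers had medians of -0.01, 0.07 and -0.12. Their sums were 3603 to 4258, 263 to 304 and 61.6 to 129.9 CPM in N2_Star, against 3848 to 4171, 244 to 262 and 115 to 127 CPM in N2. The same N2_Star replicate 1 set the muscle low of 3603 CPM, the neuron high of 304 CPM and the sperm low of 61.6 CPM, where replicates 2 and 3 had 129.9 and 128 CPM. No marker of any of these lists was called or was at 0 in a whole group, and the part of tissue makeup in the members' differences was not tested. Between MY16_Star and MY16 the 14 oocyte and germline markers were all positive, with a median of 0.33, and 8 of 15 intestinal markers were positive (median 0.05). The other lists lay mostly below 0, with 0 of 11 sperm markers positive (median -0.67), 0 of 10 muscle markers (-0.46), 1 of 10 neuron markers (-0.33) and 3 of 10 epidermal markers (-0.47). No gene of any list was called there.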

How the data were processed

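The values are raw counts of reads per gene, which the authors deposited as 2 tables, for 12 mRNA and 11 small RNA libraries. Per the submitters' processing notes, reads were handled with cutadapt, FastQC, Bowtie2, HTSeq and DESeq2 on ce11; versions, annotation and strand setting are not given in the sources used here. Per the labels' protocols, RNA was extracted with TRIzol and libraries were made with a NEBNext small RNA kit for both assays. The name of the small RNA table includes AS, undefined in the labels and possibly short for antisense: of 251 miRNA genes, 240 averaged under 1 CPM in it, so small RNA of a gene is read as antisense, which no label states. Lines naming no gene were left out of library sizes and tests; their share per library was 7.84% to 17.7% in mRNA and 38.7% to 46.6% in small RNA. Coordinates are 1-based, from the RefSeq annotation of WBcel235 (ce11).

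Groups followed the sample list. With R 4.3.3 and edgeR 4.0.16, counts were TMM scaled, filtered with filterByExpr and fitted over all 4 groups of a table with glmQLFit and glmQLFTest. P-values were adjusted by Benjamini-Hochberg over 13983 mRNA and 12241 small RNA genes, with a threshold of 0.05; intervals cover 95%. Correlations used log2 CPM with a prior count of 2. Alternatives were DESeq2 1.42.0, its size factors in edgeR, no filter, a replicate block, the compared groups alone and leaving out each library. The fit was tested on simulated data. Intervals from 2 or 3 libraries are wide, and 3-count floors cover counting error only.

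All 10 members are named, with the 5 most alike genes and the 2 nearest neighbours expressed at 1 CPM or more. Of the pathway genes named, some were chosen by size of change and others were not. The members and lists were chosen with earlier results of these data known. The sample list does not say that equal replicate numbers pair samples. Same-numbered libraries deviated together, at r above 0.1 in each of 3 pairs, only for small RNA of MY16_Star and MY16 (r = 0.117 to 0.364). Elsewhere they did not in all pairs, and in mRNA of MY16_Star and MY16 r was 0.42, -0.006 and 0.53.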

Additional observations from a re-analysis of the deposited data

Results flagged for a closer look

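The Star difference in small RNA of C55C3.3 had opposite signs in the isolates, and the test of the difference itself passed the threshold. The log2 fold change was -1.75 for MY16_Star over MY16 and 1.31 for N2_Star over N2, and the first minus the second was -3.07 ± 0.285 (edgeR adjusted p = 0.000383). Over all alternatives it lay between -3.26 and -2.89, with adjusted p-values up to 0.0035. It was lower in 3 of 3 MY16_Star libraries than in every MY16 library, and higher in 2 of 2 N2_Star libraries than in every N2 library.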

How the results depend on the processing

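Counts of genes called over all genes depended on the setting more than the members' values did. For mRNA of N2_Star against N2 the count was 21, and it was 364 with DESeq2, 233 with no filter, 109 with the replicate block, 0 with the compared groups alone and 0 to 177 when 1 library was left out. For mRNA of MY16_Star against MY16 it was 3, then 0 with the groups alone and 0 to 1 without 1 library; for MY16_Star against N2_Star it was 3145, then 792 and 1281 to 3631. For MY16 against N2 it was 563 in mRNA, with 404 to 476 without 1 library, and 2271 in small RNA, with 1598 to 2221. In small RNA, N2_Star against N2 gave 3, then 14 with DESeq2, 123 with no filter and 2 to 15 without 1 library. MY16_Star against MY16 gave 125, then 273, 522 and 67 to 105, and the Star difference between the isolates gave 45, then 129, 282 and 20 to 80. MY16_Star against N2_Star gave 1773, and 1010 to 1408 without 1 library. Members called in small RNA numbered 1 for MY16_Star against N2_Star, then 0 with DESeq2 size factors, 2 each with DESeq2, no filter, the replicate block and the groups alone, and 0 to 1 without 1 library. They numbered 0 for N2_Star against N2, then 1 with DESeq2, 1 with no filter and 0 to 1 without 1 library, and 2 for MY16 against N2, then 3 with DESeq2, 3 with no filter and 1 to 2 without 1 library. The cause of these shifts was not tested. Leaving out libraries also lowers the number of samples, and the part of this was not tested either. For small RNA of MY16_Star and MY16, where same-numbered libraries deviated together in each pair, the block gave 113 genes called and changed no member's call. Elsewhere the block moved the 21 calls to 109 in mRNA of N2_Star against N2. In small RNA of MY16_Star against N2_Star it added C10C6.7 (edgeR adjusted p = 0.0467). Of 395 member tests under alternatives, 377 kept their direction or stayed uncalled, 8 lost the call (all mnp-1), 10 gained it (C10C6.7 and C55C3.3) and 0 reversed. Where 1 N2_Star small RNA library was left, its spread was taken from the other groups. The Star difference used all groups, so no fit on compared groups alone exists for it. Without TMM scaling the median log2 fold change of all mRNA genes in MY16_Star against MY16 was -0.14, against -0.04 with it. Depth limits small RNA of the 5 untested genes.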
